A study of Homo sapiens with 8 samples.

Results

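The 36 genes described here encode the enzymes of glycolysis and transcripts known to be induced when oxygen is low. They were chosen by gene symbol in the platform annotation, and a gene was tested when a probe read above 5.9, a cut-off just above background, on at least 2 of the 8 arrays. Of the 36 listed genes, 32 were tested, among 8830 genes with a tested probe. The brightest such probe stood for each gene. Of the others, PDK1 and EGLN3 did not read above 5.25 on any array, and no probe under the symbols SLC16A3 and CA9 was in the table used here. The 32 genes were 17 of glycolysis and lactate production and 15 of the hypoxia response. Of them, 27 were above the cut-off on all 8 arrays. VEGFA, ENO2, ANKRD37, FGF11 and NRN1 were above it on 3, 3, 4, 2 and 7 arrays.

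The cells were Kasumi-1, a human cell line from acute myeloid leukaemia. It carries the t(8;21) translocation, through which the transcription factor gene RUNX1 is fused to RUNX1T1, known for encoding the corepressor ETO. All were electroporated with 200 nM siRNA, either against the fusion transcript (siRE) or a mismatch control (siMM), so every array comes from electroporated cells. Total RNA was hybridised to Illumina bead arrays. The cells were taken 48 or 96 h after a single electroporation, at 168 h, which was 72 h after the second, and at 240 h, which was 72 h after the third. Each siRNA had 1 array per time, 4 per arm, and the labels do not say whether these came from separate cultures. The error in the siRNA and time tests is how the siRE minus siMM difference varied between times among the arrays used here. That spread may hold technical variation, and a difference that changes with time adds to it. No replicate within a time separates these. No unelectroporated cells were analysed here, and the line is 1 culture model of the disease.

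Glycolysis converts glucose to pyruvate, and cells with little oxygen, or that divide fast, turn much of that pyruvate into lactate. The oxygen-labile factors of the HIF family are degraded after prolyl hydroxylation in normal oxygen. When oxygen falls they bind a short DNA core near many glycolytic genes and near genes for blood vessel growth, pH control and mitophagy. Leukaemic blasts are known for high glycolytic rates.

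Each value is the submitters' own normalized figure on a log scale, read here as log2, and levels were not compared between probes. The siRNA lowered its target: the brightest RUNX1T1 probe read 8.87 ± 0.26 in siMM and 7.48 ± 0.26 in siRE (SD, n = 4 arrays each), a difference of -1.38 (SE 0.13, limma adjusted p = 0.000197). Of 7 markers of t(8;21) myeloid blasts with a probe, 6 were above the cut-off on all arrays and PTPRC was on none. Of 13 markers of B, T, erythroid, fibroblast and epithelial cells, 9 were above it on no array, and EPCAM, an epithelial adhesion molecule, was above it on all 8 (11.03 to 11.60). Over all 14644 tested probes the median deviation of every array from its arm mean lay within 0.03 of 0. The normalization gave all arrays nearly the same sorted values, so this was largely set in advance. In RNA from whole cultures, fewer cells that express a gene and less of its RNA per cell cannot be told apart.

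The first comparison was between the times, with the 2 arms as the replicates of a time. P4HA1, ANKRD37, KDM3A, BHLHE40, NRN1, ADM, TMEM45A, BNIP3 and PFKFB4 differed between times, each with its highest mean at 96 h, and 8 of these 9 are hypoxia response genes. Most of the other genes also read highest at 96 h, mostly over a smaller range. DDIT4, FGF11, ENO2 and PFKFB3 had ranges of 1.90, 1.83, 1.77 and 1.69, as wide as some of the 9. Those of FGF11 and ENO2 rest in part on readings below the cut-off. The median of the 32 genes around its arm mean was, in siMM, -0.37, 0.62, 0.20 and -0.39 at 48, 96, 168 and 240 h. In siRE it was -0.13, 0.68, -0.24 and -0.52. For the 15 hypoxia response genes alone the median at 96 h was 0.87 in siMM and 1.04 in siRE, and for the 17 glycolysis genes 0.44 and 0.45. Both arms read highest at 96 h, which was also the longest interval after an electroporation. From 48 to 96 h the time and the interval changed together at 1 electroporation, and from 168 to 240 h the time and the number of electroporations changed together at an interval of 72 h, so within each step the pair cannot be told apart.

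**Figure D1:**
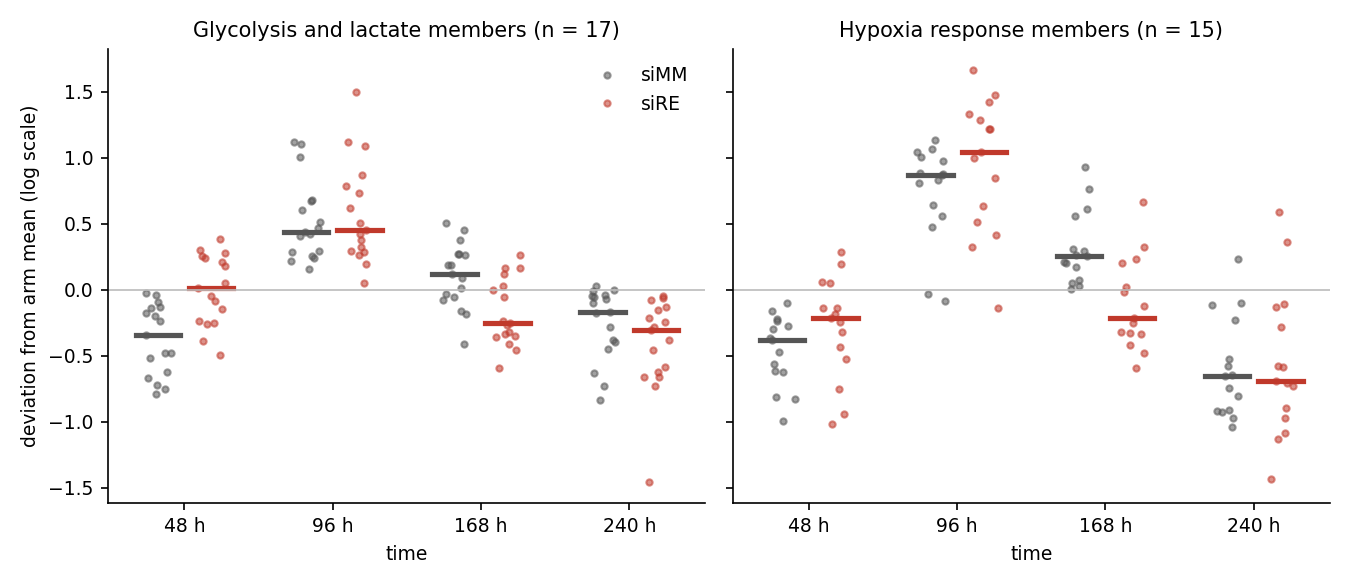
Deviation of each gene from its mean over the 4 arrays of its arm (vertical axis, log scale) at 48, 96, 168 and 240 h, with 1 point per gene and bars at the medians, in grey for siMM and red for siRE. The hypoxia response genes (n = 15) have their highest medians at 96 h, 0.87 and 1.04, and the glycolysis genes (n = 17) move the same way over a smaller range.

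In the limma F test over the times, 9 of the 32 genes differed, against 0.0888% of all tested probes (13 of 14644). Of the 13 probes, 10 belonged to these 9 genes, and the other 3 read TXNIP, an inhibitor of glucose uptake, and CD69, a lymphocyte activation marker, with 2 probes. The adjusted p-values of the 9 lay close to the threshold, between 0.0405 and 0.0479, and each range between the highest and lowest time was 1.69 to 2.45. Among the 27 genes above the cut-off on all 8 arrays, tested with the other probes of that kind, 11 differed, against 0.659% of those probes. The genes were chosen with earlier results of these data known, so the contrast with the background is a description. Without the 96 h pair no gene was called (limma adjusted p = 0.51 for each of the 9). The ranges over the times left were then 0.53 for TMEM45A and 1.10 (NRN1) to 1.55 (BHLHE40) for the other 8. Without the 240 h pair all 9 were called, with ranges of 1.28 for BNIP3, 1.05 for P4HA1 and 1.12 for KDM3A in place of 2.41, 1.97 and 1.79. Setting values below the cut-off to it also left 0 genes called (limma adjusted p = 0.326 for each of the 9), although the values of the 7 genes above it on all 8 arrays, and so their ranges, were the same. With the values as deposited and all times, 27 of the 32 had an unadjusted p under 0.05, against 12.7% of probes.

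Prolyl hydroxylase P4HA1, which modifies collagen, read 9.86, 10.98, 10.36 and 9.17 in siMM at 48, 96, 168 and 240 h and 9.98, 10.96, 9.90 and 8.83 in siRE. Both arms peaked at 96 h and were lowest at 240 h, and the arms overlapped (limma F test adjusted p = 0.0405). BNIP3, a mitochondrial protein that marks mitochondria for autophagy, read 10.89, 12.14, 11.38 and 10.25 in siMM and 10.76, 11.95, 10.14 and 9.04 in siRE. It spanned 2.41 between the time means (limma F test adjusted p = 0.0479). Its relative BNIP3L was also highest at 96 h and lowest at 240 h, without a call, with ranges of 1.44 and 1.56 at 2 probes (limma F test adjusted p = 0.187 and 0.225).

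ANKRD37, an ankyrin repeat protein known as a HIF target, read 5.63, 7.33, 7.39 and 5.49 in siMM and 5.49, 7.30, 6.22 and 5.04 in siRE. Its 48 and 240 h arrays were all below the cut-off, so it was at least 2.67-fold higher at 96 h than at either (limma F test adjusted p = 0.0405). It passed the filter through its arrays of 96 and 168 h alone, so its call between times was in part set by the filter. In siMM it was about as high at 168 h as at 96 h. In siRE it had fallen to 6.22 at 168 h, still above its 48 and 240 h readings. ADM, the vasodilator peptide adrenomedullin, had the largest step of the 32 genes from 48 to 96 h, 2.28 (SE 0.30, limma adjusted p = 0.0537). It read 6.04, 8.17, 7.80 and 6.12 in siMM and 6.18, 8.60, 6.72 and 6.23 in siRE, so both arms had returned to about their first level by 240 h. With the 48 h pair left out ADM was no longer called (limma adjusted p = 0.0501).

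KDM3A, a histone demethylase, read 8.26, 9.06, 8.98 and 7.38 in siMM and 7.71, 9.14, 8.47 and 7.25 in siRE. BHLHE40, a repressor of the circadian clock, read 6.22, 8.04, 7.65 and 6.23 in siMM and 6.50, 8.15, 8.18 and 7.24 in siRE. BHLHE40 alone of the 9 genes was higher in siRE at all 4 times, by 0.27, 0.10, 0.53 and 1.00, and this difference did not pass (0.48, SE 0.16, limma adjusted p = 0.112). It was no longer called between times with either the 48 h or the 168 h pair left out (limma adjusted p = 0.101 and 0.0662). The membrane protein TMEM45A read 7.63, 8.68, 7.88 and 7.20 in siMM and 7.35, 8.78, 7.24 and 6.87 in siRE, and its second probe also passed (range 2.07, limma F test adjusted p = 0.0405). NRN1, neuritin, known as a neurite growth factor, read 6.50, 7.94, 7.32 and 6.48 in siMM and 6.44, 7.98, 7.0 and 5.63 in siRE. The 2 arrays of 96 h were the highest of the 8 for KDM3A, TMEM45A and NRN1, while BHLHE40 had its highest array at 168 h in siRE.

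PFKFB4, a bifunctional enzyme that sets the level of the phosphofructokinase activator fructose 2,6-bisphosphate, was the 1 glycolysis gene among the 9. It read 8.50, 10.32, 9.67 and 8.38 in siMM and 8.36, 9.85, 8.29 and 6.89 in siRE, with the widest range of the 9, 2.45 (limma F test adjusted p = 0.0479). Its siRE array of 240 h was the lowest of the 8.

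**Figure D2:**
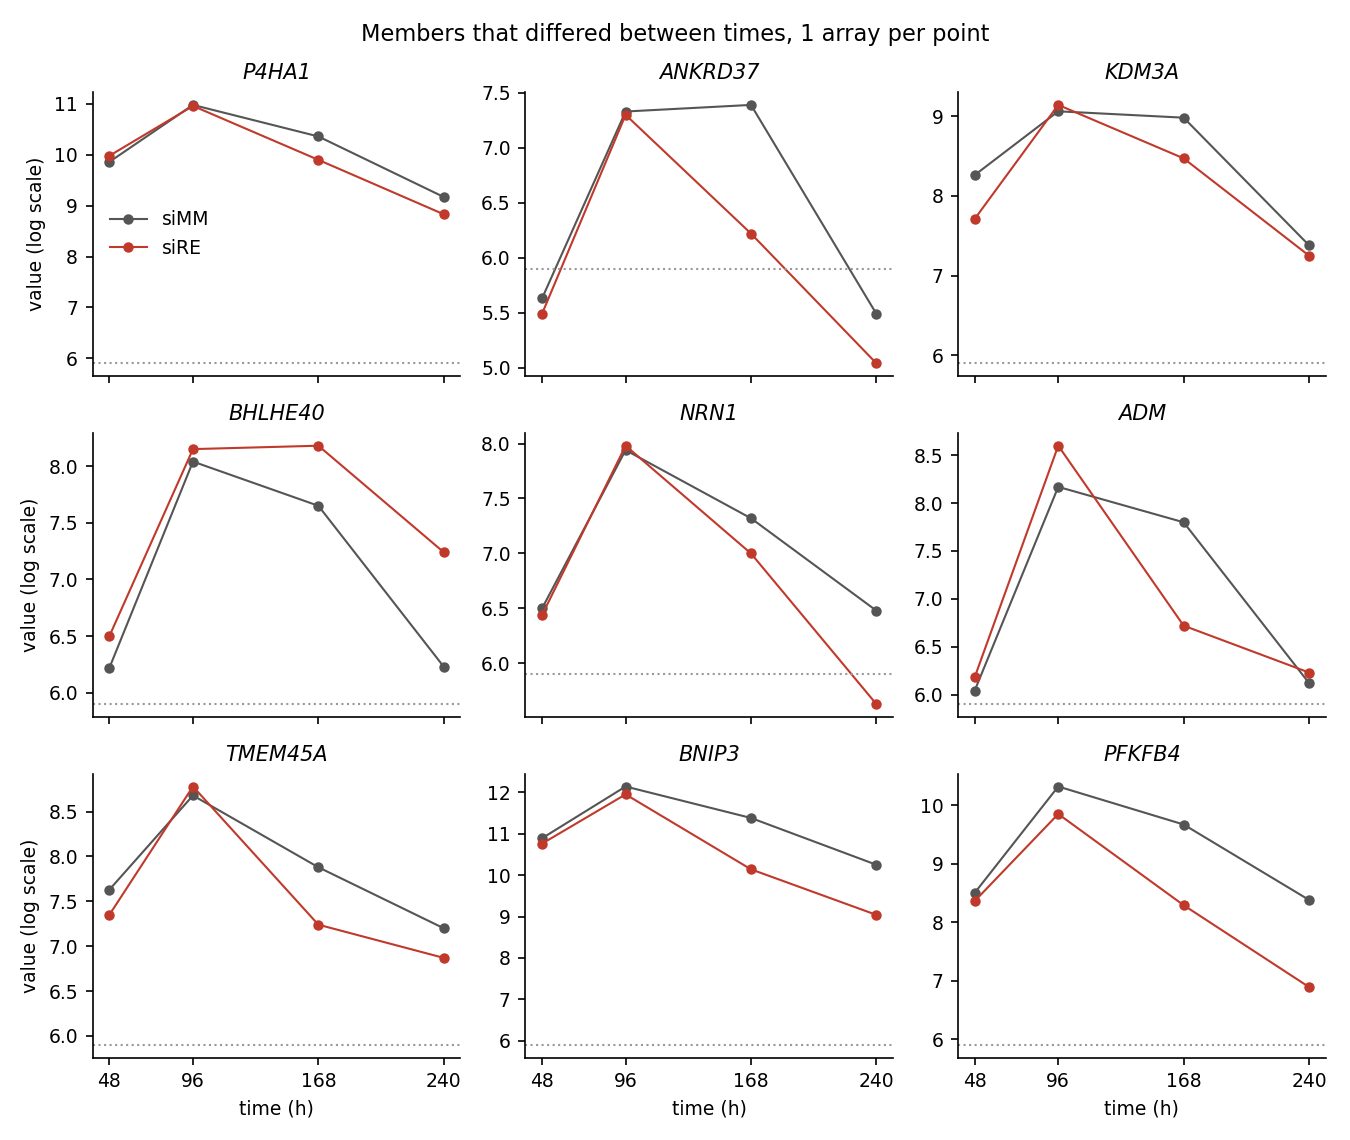
Normalized value (vertical axis, log scale) of the 9 genes called by the F test over times, plotted against time in h, with 1 array per point, siMM in grey and siRE in red. All 9 read higher at 96 than at 48 h in both arms, by 1.05 to 2.28 in the mean of the arms, and the dotted line marks the cut-off of 5.9.

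Neighbouring times gave less. For the step from 48 to 96 h, 0 of the 32 genes passed (limma, lowest adjusted p = 0.0537), against 0.00683% of probes, and at an unadjusted p under 0.05, 24 were higher at 96 h, against 6.71% of probes. For the steps to 168 and to 240 h, 0 probes passed, and at an unadjusted p under 0.05, 18 and 13 of the genes were lower at the later time, against 2.42% and 5.09%. In values without a test, both 96 h arrays lay above the other 6 for 21 of the 32 genes, against 3.95% of probes. A value higher by 1 or more at 96 than at 48 h in both arms was seen in 13 genes, against 0.212% of probes, and one lower by 1 or more at 240 than at 96 h in 13, against 0.335%. ENO2, ANKRD37 and FGF11 are in both counts of 13, with all their 48 and 240 h arrays below the cut-off, so the sizes of their steps are not known. ENO2 and FGF11 are also in the 21. ENO2 passed the filter through its arrays of 96 h and siMM of 168 h alone, so its place in these counts was in part set by the filter. FGF11, a growth factor family member, passed the filter through its 2 arrays of 96 h alone (6.62 and 6.65, others 4.59 to 5.63). Its place in the 21 was thus set by the filter, and its difference between times was in part set by it. FGF11 was at least 1.67-fold higher at 96 h than at 48, 168 or 240 h (limma F test adjusted p = 0.058).

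Promoter sequences are shown for 4 genes that differed between times and hold from 1 to 6 matches to the known core of the hypoxia response element, and for TMEM45A, which differed too and has no match. The windows of 300 bases start 250 before the start site, come from RefSeq on GRCh38.p14 and are written on the gene's strand. They lie at chr4:185396591-185396890 (plus strand) for ANKRD37, chr10:73096817-73097116 (minus) for P4HA1, chr10:131981874-131982173 (minus) for BNIP3, chr3:48556754-48557053 (minus) for PFKFB4 and chr3:100492369-100492668 (plus) for TMEM45A. Capitals mark ACGTG or GCGTG on either strand, with overlapping matches merged.
ANKRD37: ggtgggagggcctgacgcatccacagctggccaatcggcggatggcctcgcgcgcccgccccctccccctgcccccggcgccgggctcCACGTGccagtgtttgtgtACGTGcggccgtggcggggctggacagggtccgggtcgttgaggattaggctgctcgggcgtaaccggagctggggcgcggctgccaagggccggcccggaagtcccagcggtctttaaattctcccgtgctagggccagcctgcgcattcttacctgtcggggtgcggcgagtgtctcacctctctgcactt
P4HA1: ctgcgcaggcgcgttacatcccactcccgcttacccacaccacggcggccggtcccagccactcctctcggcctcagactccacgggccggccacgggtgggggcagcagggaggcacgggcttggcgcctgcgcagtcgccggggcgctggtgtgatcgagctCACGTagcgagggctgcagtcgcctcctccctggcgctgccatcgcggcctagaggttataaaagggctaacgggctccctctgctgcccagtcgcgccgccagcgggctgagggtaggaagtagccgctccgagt
BNIP3: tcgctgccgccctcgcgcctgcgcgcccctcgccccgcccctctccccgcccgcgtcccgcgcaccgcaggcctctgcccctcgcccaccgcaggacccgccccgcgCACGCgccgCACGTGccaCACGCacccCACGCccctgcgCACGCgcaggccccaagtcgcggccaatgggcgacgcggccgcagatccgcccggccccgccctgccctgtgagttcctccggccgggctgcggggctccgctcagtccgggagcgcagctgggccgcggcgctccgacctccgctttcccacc
PFKFB4: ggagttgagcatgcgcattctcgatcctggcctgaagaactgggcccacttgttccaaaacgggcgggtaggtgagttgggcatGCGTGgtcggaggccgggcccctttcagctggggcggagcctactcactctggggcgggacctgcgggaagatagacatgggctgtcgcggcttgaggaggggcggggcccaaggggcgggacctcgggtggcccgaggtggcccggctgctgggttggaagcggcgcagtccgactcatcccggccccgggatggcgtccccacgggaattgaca
TMEM45A: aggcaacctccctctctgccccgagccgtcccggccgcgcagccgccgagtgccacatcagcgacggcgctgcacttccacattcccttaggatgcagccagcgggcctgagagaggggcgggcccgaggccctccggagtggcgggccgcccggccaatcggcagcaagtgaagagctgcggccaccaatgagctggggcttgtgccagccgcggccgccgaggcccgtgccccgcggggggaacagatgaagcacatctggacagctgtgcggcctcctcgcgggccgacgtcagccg

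The ANKRD37 window holds ACGTG at -162, -161 and -143 bases from the start site, the first 2 being both strands of the palindrome CACGTG. The BNIP3 window holds 6 matches between -143 and -104, of which 2 are again the strands of CACGTG. P4HA1 has 1 ACGTG on the other strand at -86, and PFKFB4 has 1 GCGTG at -166. Of the 32 tested genes 29 had at least 1 window in the table (47 windows), and BNIP3L, VEGFA and NDRG1 had none. ACGTG occurred in 48.9% of these windows, against 26.9% of the 10439 windows of all tested genes and 21.4% of all 35116. GCGTG occurred in 42.6%, against 50.0% and 36.5%. Genes with several windows weigh more in these shares. In the 10 windows of the 9 genes that differed between times, ACGTG occurred in 40.0% and GCGTG in 50.0%. By gene, 86.2% of the 29 had either core in a window, against 71.8% of the 7233 tested genes with one. Of the 9 genes, 77.8% had either core, and NRN1 and TMEM45A were the 2 without. The windows of the tested members had a mean GC content of 66.3%, those of the 9 genes 68.3% and those of all tested genes 63.6%.

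The second comparison was between siRE and siMM over the 4 times. PFKP and PFKFB4, which catalyse or set the phosphofructokinase step, fell by 0.79 and 0.87 after knockdown, and NDRG1 rose by 1.01. Most of the other genes had estimates below 0 that did not pass the test. Called lower were 2 of 32 genes, against 2.8% of all tested probes, and called higher was 1, against 3.27%, so the counts lie near the background (in either direction, 6.07%). The estimate was below 0 for 27 of 32 genes, against 54.1% of probes, and at an unadjusted p under 0.05 there were 15 lower and 3 higher genes, against 12.7% and 10% of probes. The median difference was -0.32 over the 32 genes, -0.41 over the glycolysis genes and -0.19 over the hypoxia response genes, against -0.03 over all probes. Without time as a replicate block 0 of the 3 genes passed (limma adjusted p = 0.163, 0.406 and 0.0802 for PFKP, PFKFB4 and NDRG1). Letting the prior follow intensity, with a robust fit, gave 9 lower genes, against 4.48% of probes.

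PFKP, the platelet form of phosphofructokinase, which commits glucose to glycolysis, read 9.01, 9.70, 9.03 and 9.01 in siMM and 8.78, 9.18, 7.80 and 7.81 in siRE. The arms overlapped through the siRE array of 96 h, and the siRE arrays of 168 and 240 h were the lowest. The means were 9.19 ± 0.34 and 8.39 ± 0.70 (SD, n = 4 each), and the difference was -0.79 (SE 0.18, limma adjusted p = 0.0267). PFKFB4, with the values given above, differed by -0.87 (SE 0.21, limma adjusted p = 0.0364), by -0.15, -0.47, -1.38 and -1.49 at the 4 times in order. Both calls were lost with the pair of 96, 168 or 240 h left out, with limma adjusted p = 0.0847, 0.194 and 0.0691 for PFKP and 0.0933, 0.23 and 0.0969 for PFKFB4. Both also ended with values below the cut-off set to it (limma adjusted p = 0.0737 and 0.102), although all values of these 2 genes were above it and their differences were the same. PFKL, the liver form, read 7.67, 8.12, 7.92 and 7.90 in siMM and 7.57, 7.59, 7.07 and 7.33 in siRE. Every siRE array of PFKL was below every siMM array, and the difference did not pass (-0.51, SE 0.15, limma adjusted p = 0.0692).

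NDRG1, a stress and differentiation gene known to be induced by hypoxia and by iron chelation, read 7.17, 8.20, 7.65 and 7.54 in siMM and 7.71, 8.97, 8.67 and 9.24 in siRE. It was higher in siRE at all 4 times, by 0.53, 0.77, 1.03 and 1.69, and by 1.01 over them (7.64 ± 0.43 against 8.65 ± 0.67, SD, n = 4 each, SE of the difference 0.18, limma adjusted p = 0.00801). In siMM it read highest at 96 h, as most hypoxia response genes did, and in siRE it was highest at 240 h. Its correlation over the 8 arrays with the mean of the standardized members was 0.03, where 28 genes had 0.60 or more. With the 168 h pair left out NDRG1 was no longer called (limma adjusted p = 0.068).

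**Figure D3:**
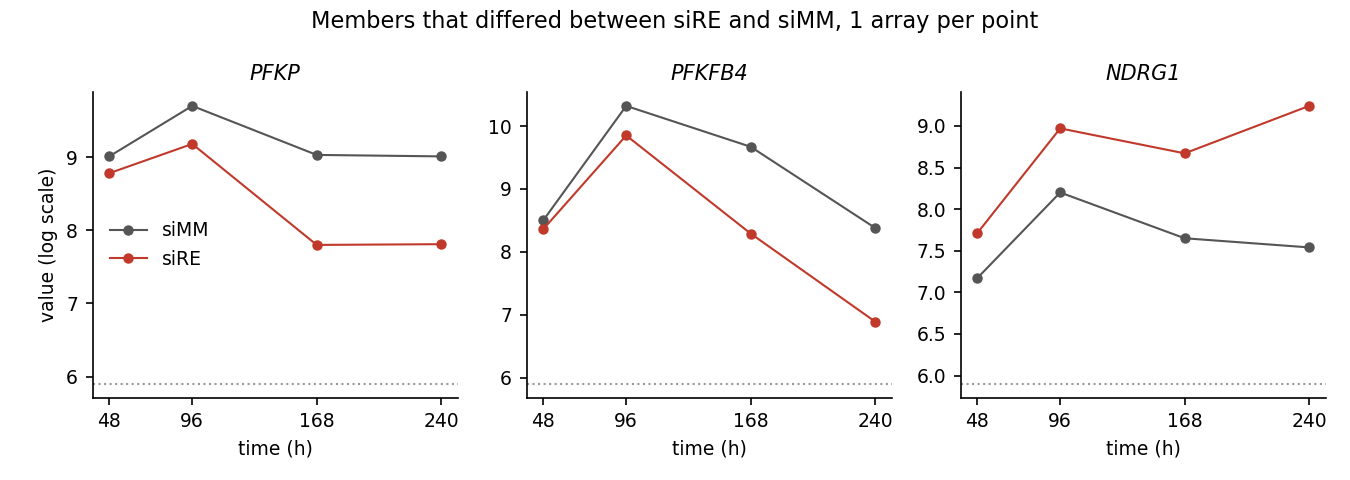
Normalized value (vertical axis, log scale) against time in h of the 3 genes called between siRE and siMM, with 1 array per point, siMM in grey, siRE in red and the cut-off of 5.9 dotted. PFKP and PFKFB4 separate between the arms mainly at 168 and 240 h, by 1.20 to 1.49, while NDRG1 is higher in siRE at every time.

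Among enzymes of the first steps, HK1, the hexokinase that traps glucose in most cells, read 9.88, 10.64, 10.19 and 10.17 in siMM and 9.77, 10.17, 9.26 and 9.67 in siRE. The difference of -0.50 did not pass (limma adjusted p = 0.0804), and a dim second probe stood at 0.17. HK2, the inducible hexokinase (8.46 to 9.90), stood at -0.37 and GPI, the isomerase that follows (10.29 to 11.48), at 0.19 (limma adjusted p = 0.182 and 0.472). GPI and PKM were the 2 glycolysis genes with estimates above 0.

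In the middle and lower steps ALDOA, the aldolase of muscle and most cells, read 10.68, 11.82, 11.62 and 11.28 in siMM and 10.49, 11.62, 10.87 and 10.02 in siRE. Its difference was -0.60 and that of its second probe -0.61 (limma adjusted p = 0.0806 and 0.0748). TPI1, triosephosphate isomerase, read 12.24, 12.70, 11.85 and 12.25 in siMM and 12.12, 12.15, 11.53 and 11.65 in siRE. ALDOA and TPI1 overlapped between the arms, and TPI1 did not pass either (-0.40, limma adjusted p = 0.121).

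ENO1, the main enolase, read 13.09, 13.82, 13.14 and 12.82 in siMM and 12.91, 13.40, 12.31 and 12.04 in siRE, a difference of -0.56 just outside the threshold (SE 0.15, limma adjusted p = 0.0534). ENO2, the neuronal enolase, read 5.25, 7.12, 6.27 and 5.37 in siMM and 5.27, 6.43, 4.90 and 4.65 in siRE. Of its 8 arrays 3 were above the cut-off, both of 96 h and siMM of 168 h. PGAM1, phosphoglycerate mutase, read 11.31, 11.60, 11.16 and 11.31 in siMM and 11.19, 11.51, 10.62 and 10.23 in siRE. LDHA, which makes lactate from pyruvate, read 13.29, 13.72, 13.37 and 13.33 in siMM and 13.30, 13.44, 12.77 and 12.56 in siRE. The siRE arrays of 168 and 240 h were the lowest of the 8 for ENO1, PGAM1 and LDHA. The differences of PGAM1 and LDHA were -0.46 and -0.41 (limma adjusted p = 0.149 and 0.148). That of ENO2 was -0.69 with the values as deposited (limma adjusted p = 0.0621) and -0.27 with its 5 arrays below the cut-off set to it (limma adjusted p = 0.314), so its size is not known. The other 2 LDHA probes stood at -0.43 and -0.51. Many of these enzymes have processed pseudogenes, and which copies each probe can read was not tested.

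GAPDH (12.88 to 13.78) and PGK1 (11.34 to 12.28), the consecutive enzymes that lead to the first ATP of the pathway, stood at -0.27 and -0.35 (limma adjusted p = 0.276 and 0.178), and the 3 GAPDH probes at -0.28 to -0.27. PKM, pyruvate kinase (9.60 to 10.75), had estimates above 0 at its 3 probes, 0.20, 0.42 and 0.40, and none passed (limma adjusted p = 0.463, 0.134 and 0.127). ALDOC, the brain aldolase (6.36 to 7.21), stood at -0.14 and PFKFB3, the inducible relative of PFKFB4 (7.38 to 9.28), at -0.39, and the second PFKFB3 probe at 0.02 (limma adjusted p = 0.571, 0.272 and 0.951).

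Of the hypoxia response genes, DDIT4, an inhibitor of mTORC1 signalling, read 7.56, 9.22, 8.48 and 7.43 in siMM and 7.35, 9.02, 7.0 and 7.01 in siRE. It followed the same course as the 9 genes above without a call (range 1.90, limma F test adjusted p = 0.122; difference -0.57, limma adjusted p = 0.123). Among the others without a call in either test, BNIP3L (8.09 to 9.66) stood at -0.19. FGF11 and VEGFA, mostly below the cut-off, stood at 0.01 and -0.02 with such values set to it. P4HA2, a second collagen hydroxylase (6.38 to 7.50), stood at 0.31 and its second probe at -0.04 (limma adjusted p = 0.214 and 0.9). VEGFA, the main vessel growth factor, read 5.25 to 6.03 over all arrays, close to the cut-off. EGLN1, the prolyl hydroxylase that marks HIF for destruction (6.82 to 7.42), stood at -0.05 (limma adjusted p = 0.893).

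The difference between the arms was small at 48 and 96 h and larger at the later times. With 1 array against 1, these values have no test. The median difference was -0.08, -0.19, -0.66 and -0.35 at 48, 96, 168 and 240 h, against -0.01, -0.02, -0.02 and -0.06 over all probes. At 48 and 96 h 18 and 21 of 32 genes were lower in siRE, against 50.9% and 51.9% of probes, and 0 differed by 1 or more. With values below the cut-off set to it, 0 were lower by 1 or more, against 0.205% and 0.478% of probes. A count of 0 thus lies near the background. At 168 h 27 of 32 genes were lower in siRE, against 52.2% of probes, and 8 were lower by 1 or more, against 1.64%. These were PFKP, PFKFB3, PFKFB4, ENO2, BNIP3, ADM, ANKRD37 and DDIT4. The siRE array of ENO2 was below the cut-off, and with such values set to it ENO2 stood at -0.37 and the other 7 remained, against 1.16% of probes. At 240 h 5 were lower by 1 or more, against 4.95%: PFKP, PFKFB4, ALDOA, PGAM1 and BNIP3. Higher by 1 or more were NDRG1 at both times and BHLHE40 at 240 h, against 1.99% of probes at 168 h and 3.51% at 240 h.

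The genes lower by 1 or more at 168 and 240 h were partly different, with PFKP, PFKFB4 and BNIP3 in both. ADM, DDIT4 and PFKFB3 had differences of -1.08, -1.47 and -1.26 at 168 h, and of 0.11, -0.41 and 0.09 at 240 h, when siMM had fallen too. PFKP, PFKFB4 and BNIP3 stood at -1.20, -1.49 and -1.21 at 240 h, close to their 168 h values. ALDOA and PGAM1 reached -1.26 and -1.08 at 240 h. From 96 to 168 h 27 of 32 genes had a lower step in siRE than in siMM, against 49.4% of probes. The step of DDIT4 was -2.02 in siRE and -0.74 in siMM, that of BNIP3 was -1.81 and -0.76, and that of ADM was -1.89 and -0.38.

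**Figure D4:**
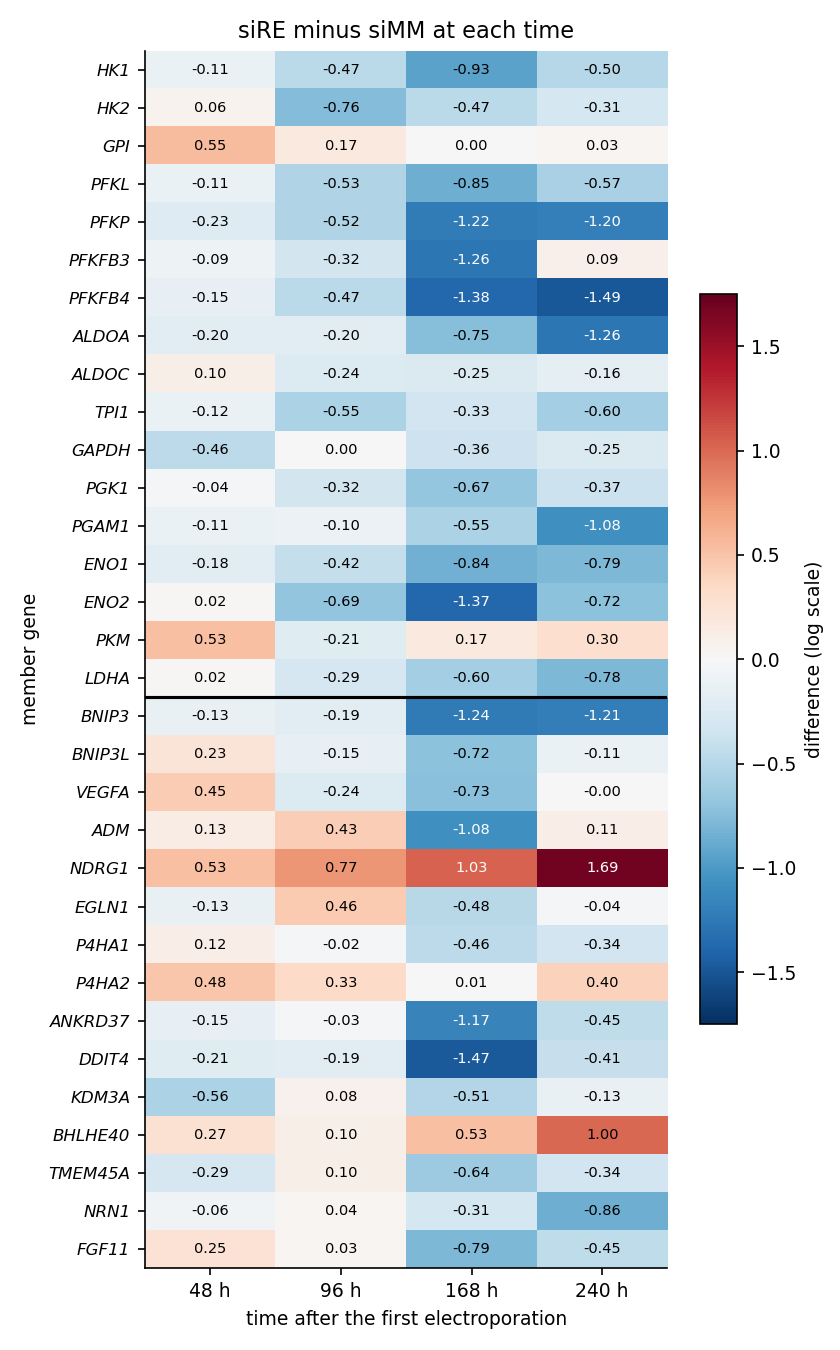
Difference siRE minus siMM (colour and printed value, log scale) of the 32 genes at each time in h, with the glycolysis genes above the black line and the hypoxia response genes below it, 1 array per arm and time. The columns of 168 and 240 h hold all the values at or below -1, while NDRG1 and BHLHE40 reach 1.69 and 1.00 at 240 h, and the values of ENO2, VEGFA, ANKRD37, NRN1 and FGF11 rest in part on readings below the cut-off.

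The slope of the siRE minus siMM difference over days was below 0 for 28 of 32 genes, against 54.2% of probes. The limma interaction test called 0 of them (lowest adjusted p = 0.0638, for PFKFB4 at -0.18 per day, SE 0.04), against 0.949% of probes, and 10 had an unadjusted p under 0.05, against 16.6%. With a prior that follows intensity and a robust fit the interaction called 5 of the genes, against 2.64% of probes.

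The pathway around these genes was read from lists chosen by function, to be read against the 2.8% of probes called lower and 3.27% called higher. Of 8 tested (21 listed) glycolysis genes and transporters outside the members, 1 was lower, the glucose transporter SLC2A3 (-3.51, SE 0.47, limma adjusted p = 0.0014), 0 were higher and the median was -0.16. SLC2A3 read 9.50, 11.28, 11.04 and 9.53 in siMM and 7.62, 9.17, 5.92 and 4.60 in siRE. Its highest array in each arm was that of 96 h, and every siRE array was below every siMM array. The difference was -1.88, -2.11 and -5.12 at 48, 96 and 168 h. The siRE array of 240 h was below the cut-off. With it set to the cut-off the difference was -3.63 there and -3.19 over the 4 times (limma adjusted p = 0.0301). The slope over days (-0.45, limma interaction adjusted p = 0.0136) was not called with that value set to the cut-off (-0.30, limma interaction adjusted p = 0.301). The other main transporter, SLC2A1, stood at -0.41 (limma adjusted p = 0.21). Of 14 tested genes (17 listed) of HIF oxygen sensing, 0 were lower and 1 was higher, CITED2, a factor that competes with HIF for its coactivators (0.84, SE 0.13, limma adjusted p = 0.00344). HIF1A itself stood at -0.04 with a range between times of 0.17, and VHL, which ubiquitinates HIF, at 0.01 (limma adjusted p = 0.884 and 0.963). The F test over times did not call HIF1A (limma adjusted p = 0.892), and HIF protein was not measured here.

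Of 24 tested (34 listed) other genes known to be induced by hypoxia, 3 were lower: PLOD2, a collagen hydroxylase (-0.94), AK4, a mitochondrial adenylate kinase (-0.80), and HILPDA, a lipid droplet protein (-0.71; limma adjusted p = 0.0245, 0.0326 and 0.0364). The chemokine receptor CXCR4 was higher (2.38, SE 0.30, limma adjusted p = 0.000958), and its siMM arrays of 48 and 240 h were below the cut-off. With these set to it the difference was 2.09 (limma adjusted p = 0.0231), and the slope went from 0.27 per day (limma interaction adjusted p = 0.0356) to 0.23 without a call (0.122). Both 96 h arrays lay above the other 6 for 12 of these 24 genes, against 3.95% of probes, and 0 passed the F test over times. GYS1 passed the filter through its 2 arrays of 96 h alone, so its place in the 12 was set by the filter. JMJD6 passed it through its arrays of 96 h and siRE of 168 h alone, so its place was in part set by the filter. Of 15 tested (20 listed) genes of the pentose phosphate path and mitochondrial pyruvate use, 0 were lower and 1 was higher, TKT, transketolase (0.52, SE 0.13, limma adjusted p = 0.0406), with a median of 0.17. That list had 1 gene whose 96 h arrays lay above the rest.

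The 6 tested genes outside the list whose pattern was most like the mean of the standardized members, by Pearson's correlation over the 8 arrays, were GBE1 (0.993), ALKBH5 (0.975), CALHM6 (0.971), RAB20 (0.963), CCL3L3 (0.960) and RPL34 (0.954). GBE1, the glycogen branching enzyme, read 10.06, 11.15, 10.77 and 10.09 in siMM and 10.17, 11.03, 10.16 and 9.72 in siRE. Among the members themselves ENO2 (0.99), DDIT4 (0.98) and FGF11 (0.97) lay closest to that mean, and VEGFA (-0.02) and NDRG1 (0.03) farthest from it. The arrays share their normalization, and these values are a description.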

How the data were processed

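RNA of 8 Kasumi-1 samples was labelled with biotin as cRNA and hybridised to Illumina bead arrays, per the labels' protocols. The log2 values are the authors' deposited processed table; the submitters' processing notes name lumi, with no word on background or transformation in the labels. Values ran from 3.89 to 14.36, which fits plain log2 or lumi's variance-stabilised scale, so a fold holds only for plain log2. The sorted values of any 2 arrays lay within 0.0235, which is what quantile normalization leaves, so a shift shared by most transcripts is not visible. The 16 columns of a second, non-normalized table were left out, since no label ties its columns to samples.

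Of 47230 probes, 14644 exceeded 5.9 on at least 2 arrays. Groups come from the siRNA label. limma 3.58.1 (R 4.3.3) fitted siRNA and time as factors (3 residual and 8.16 prior degrees of freedom), with Benjamini-Hochberg adjustment over all tested probes at 0.05, and siRNA by day as an interaction (2 residual degrees of freedom). The fits were tested on simulated data. The arrays were paired by their labelled time. Deviations of siRE and siMM from their arm mean correlated at 0.375, 0.292, 0.212 and 0.072 at 48, 96, 168 and 240 h. Between different times they correlated at -0.320 to 0.198, a range that holds the 240 h value. Centring each arm on its own mean lowers the correlations between different times, so these values do not test the pairing. A bound sets the dimmer time at no less than the cut-off. The number of arrays limits the precision. Alternatives were the block, leaving out each time pair, 2 filters, a floor at the cut-off, cyclic loess, prior, array weights, probe choice and neighbouring steps. Fully described genes were those called, then those with the largest siRE minus siMM difference up to 20, and from each list around the pathway those called, at most 4. Single differences with values set to the cut-off were added after seeing the data. Members and lists were chosen with earlier results of these data known. A planned comparison of protein sequences was not run.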

Additional observations from a re-analysis of the deposited data

Results flagged for a closer look

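Within an arm, 6 of 64 sets of 4 arrays had 1 array set apart from the other 3 by Dixon's criterion, where chance gives about 1 in 20. The array of 96 h was the one apart in 5 of them. PFKP in siMM read 9.70 at 96 h against 9.01 to 9.03, PFKFB3 in siRE 8.96 against 7.38 to 7.63, EGLN1 in siRE 7.42 against 6.82 to 6.90, P4HA2 in siRE 7.50 against 6.74 to 6.86 and DDIT4 in siRE 9.02 against 7.0 to 7.35. EGLN1 in siMM read 7.35 at 168 h against 6.94 to 6.97. The times of an arm are not replicates of one condition, so these values restate the course over time.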

How the results depend on the processing

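Of the 32 genes, 2 were lower and 1 higher in siRE, 9 differed between times and 0 had a slope. Leaving out 1 time pair in turn, with fewer arrays, gave 0 to 7 lower (0.608% to 4.07% of probes) and 0 to 1 higher (1.11% to 3.95%). Over times it gave 0 to 15 (0% to 0.608%). Without the replicate block 0 were lower (1.47%) and 0 higher (2.15%). Requiring the cut-off on all 8 arrays, where 27 of the genes were tested, gave 7 lower (5.15% of probes) and 2 slopes (1.63%), and array weights gave 5 lower (3.25%). An intensity trend with a robust prior gave 9 lower (4.48%), 15 over times (0.69%) and 5 slopes (2.64%). Values below the cut-off set to it gave 0 lower (1.27%) and 0 over times (0%), and neighbouring steps in place of the F test gave 0. The cause of these shifts was not tested. With no filter 13 genes differed between times (0.0783% of probes), with cyclic loess 9 (0.0888%) and with array weights 10 (0.102%). PFKP, PFKFB4 and NDRG1 kept their sign in each run. Of all tested probes, 889 were called between the siRNAs, 530 without the block, 310 and 251 without the 96 and 168 h pairs, and 465 with values set to the cut-off. The 13 probes called over times became 0, 22 and 89 without the 96, 168 and 240 h pairs, 37 with no filter, 67 above the cut-off on all arrays, 0 with values set to it and 101 with the trend. The 139 slopes became 10 with values set to the cut-off and 387 with the trend. Probes near the cut-off, such as those of VEGFA, ENO2, FGF11 and ANKRD37, limit what a low reading shows.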
